A study of Mus musculus with 9 samples.

Results

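The 10 genes described here encode core machinery of MHC class I antigen presentation in the mouse. They are the heavy chains H2-K1, H2-D1, H2-T22 and H2-T23, the light chain B2m, the peptide transporter subunits Tap1 and Tap2, the peptide editors Tapbp and Tapbpl, and the transcriptional coactivator Nlrc5. They were chosen by name, though with earlier results of these data known, and they are 10 of the 24062 genes in the count table. All 10 had enough counts to be tested. RNA was sequenced from mouse embryonic fibroblasts of the C57BL/6 strain, cells grown out of embryos, which gamma rays had made senescent, a state of lasting growth arrest. In all 3 groups the cells were irradiated and then, on day 10, infected with lentivirus to express a short hairpin RNA. The shScr group received a scrambled hairpin. The shRela-1 and shRela-2 groups received independent hairpins against Rela, the gene of p65, an activating subunit of NF-kB. Each group had 3 replicates. There is no group without irradiation or without virus, so what the groups share cannot be compared here.

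Class I molecules show fragments of the cell's own proteins to CD8+ T cells and natural killer cells. A heavy chain folds in the endoplasmic reticulum with beta-2 microglobulin, waits in a complex with calreticulin, ERp57 and tapasin beside the TAP transporter, and leaves for the surface when a peptide made by the proteasome has been bound. The genes of the pathway carry a shared promoter module, are switched on by interferons, in part through IRF1, and by NLRC5, and some of them also carry NF-kB sites. Fibroblasts make class I molecules at a modest level that inflammatory signals raise.

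Rela was low in every knockdown sample. Its level was 85.5, 83.2 and 86.8 CPM (counts relative to the library total after scaling by edgeR's TMM factors) in shScr replicates 1 to 3, 14.1, 13.6 and 13.2 CPM with shRela-1, and 14.8, 13.5 and 13.4 CPM with shRela-2. Deposited totals ran from 49774667 to 67963506 counts per sample. The titles of the shScr samples, and no others, carry a dataset tag, so a library batch that followed the tag would hold exactly these samples and cannot be told apart from the group. Fibroblast markers summed to between 55235 and 66033 CPM, and all 11 were present in every sample. Leukocyte markers, whose cells also carry much class I, were present in all samples as well (13 of the 14 listed are in the table, none at 0) and summed to between 381 and 634 CPM. In bulk RNA, fewer cells of a type and less RNA per cell cannot be told apart.

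The promoters of 7 of the 10 genes were matched in RefSeq windows on GRCm38.p6 (the assembly also called mm10), each from 250 bases before to 50 bases after a gene's start. Tap2, Tapbpl and Nlrc5 were not matched. Stretches of 200 bases before the start are shown for 4 genes. They set the heavy chain that fell with 1 hairpin, H2-T23, beside H2-K1, H2-D1 and B2m, which did not pass the main test. With the replicate number as a block, edgeR called H2-K1 and H2-D1 higher with shRela-2 (adjusted p = 0.00173 and 0.0441). The 4 genes were thus picked by outcome, and a link between motifs and changes was not tested. All are written 5′ to 3′ on the gene's own strand. Capitals mark matches on either strand to the NF-kB consensus or to the interferon element core (GAAA, 2 of any base, then GAAA), which factors of the IRF family bind. The stretches lie at chr17:34000348-34000547 on the minus strand (H2-K1), chr17:35262894-35263093 on the plus strand (H2-D1), chr17:36032702-36032901 on the minus strand (H2-T23) and chr2:122147487-122147686 on the plus strand (B2m).
H2-K1: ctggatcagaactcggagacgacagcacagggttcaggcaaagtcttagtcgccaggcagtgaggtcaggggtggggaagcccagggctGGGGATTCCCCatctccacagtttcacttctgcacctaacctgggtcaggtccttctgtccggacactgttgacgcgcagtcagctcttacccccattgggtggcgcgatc
H2-D1: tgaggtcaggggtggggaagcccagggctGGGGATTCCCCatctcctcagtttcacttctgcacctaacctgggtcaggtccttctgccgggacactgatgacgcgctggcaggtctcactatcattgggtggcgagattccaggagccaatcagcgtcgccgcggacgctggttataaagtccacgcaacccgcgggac
H2-T23: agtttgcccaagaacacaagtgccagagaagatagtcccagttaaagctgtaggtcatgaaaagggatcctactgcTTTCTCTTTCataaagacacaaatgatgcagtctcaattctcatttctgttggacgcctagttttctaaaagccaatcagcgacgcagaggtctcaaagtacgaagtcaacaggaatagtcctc
B2m: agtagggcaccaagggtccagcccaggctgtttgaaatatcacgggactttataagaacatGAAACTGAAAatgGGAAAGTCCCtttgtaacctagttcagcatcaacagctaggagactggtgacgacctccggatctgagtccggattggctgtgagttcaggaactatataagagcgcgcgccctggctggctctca

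H2-K1 and H2-D1 carried the same capitalised run, in which 2 overlapping matches to the NF-kB consensus are read on each strand. In B2m a match to the interferon element core stood 3 bases before an NF-kB match, whereas H2-T23 had the interferon match alone. The NF-kB consensus was found in 4 of the 7 genes (H2-K1, H2-D1, H2-T22 and B2m) and in 8.46% of all 32851 windows of the same length. The interferon element core was found in 3 of the 7 (H2-T22, H2-T23 and B2m) and in 3.44% of all windows. Only exact matches were counted, so a variant of the element would be missed. The run tttcacttct in H2-K1 and H2-D1 resembles the core but is not an exact match. Lower case therefore does not mean that a promoter lacks an interferon element. CCAAT, the core of the Y box that NF-Y binds, was found in 7 of 7 and in 37.4% of all windows. TGACG, the core of the element that CREB and ATF1 bind, was found in 5 of 7 and in 20.8% of all windows. TTCNNNGAA, the core of the gamma-activated site, was found in 0 of 7 and in 8.3% of all windows. The GENCODE models of H2-D1, H2-T23 and, by the widest margin, Tapbp begin further upstream than the RefSeq start. The windows of H2-D1 and Tapbp do not reach that start. The window of H2-T23 does (chr17:36032855), but its interferon match lies downstream of that start, and less sequence before it was searched. A match describes letters in a window and is not a measured binding site.

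**Figure D1:**
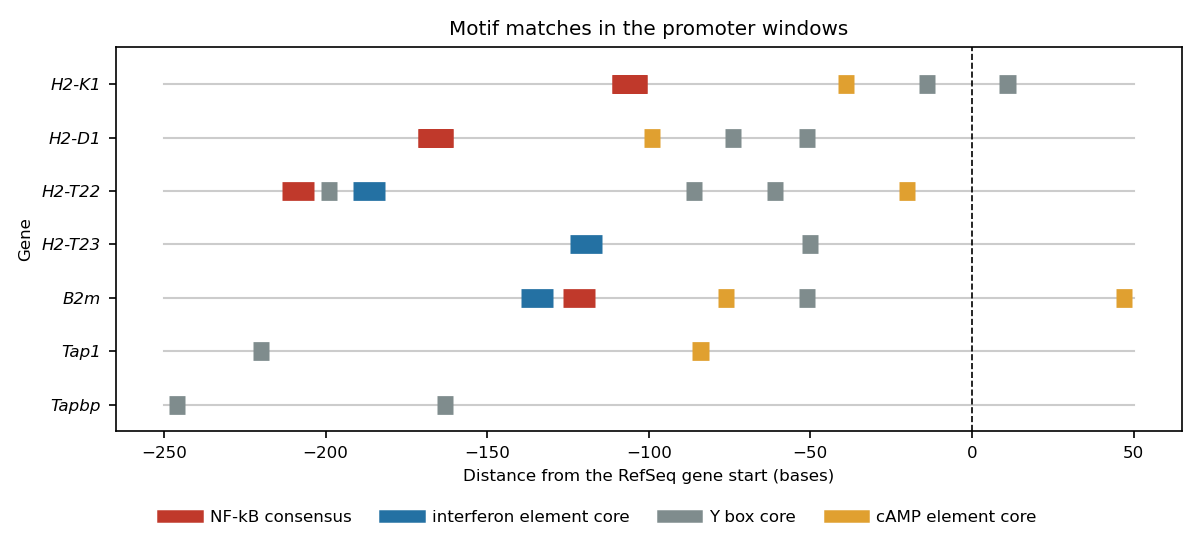
Motif matches on either strand in the RefSeq promoter windows of 7 genes, by distance in bases from the gene's start (dashed line); each grey line is 1 window of 300 bases and each coloured block 1 match. For H2-K1, the first of 2 RefSeq windows is drawn. NF-kB matches stand in H2-K1, H2-D1, H2-T22 and B2m, and none in H2-T23, Tap1 or Tapbp.

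With shRela-1, 3 of the 10 genes fell and none rose (0 by edgeR or DESeq2, and 0 at an unadjusted p under 0.05). They were H2-T23, Tapbpl and Tap2, a nonclassical heavy chain, a peptide editor and a transporter subunit. Over all 15369 genes tested, 12.3% rose and 12.4% fell with this hairpin, 24.7% in all (adjusted p under 0.05, Benjamini-Hochberg, from the quasi-likelihood test of edgeR). The median log2 difference was -0.21 over the 10 genes and 0.0026 over all genes, and 9 of the 10 values were below 0. Summed levels of some cell type markers also set the shRela-1 samples apart. The 8 epithelial markers summed to 28.0 to 40.3 CPM with shRela-1, 19.0 to 25.1 CPM in shScr and 19.1 to 23.9 CPM with shRela-2, of which keratin genes gave most, while the defining genes Epcam and Cdh1 had 1 to 18 counts in every sample. The 11 fibroblast markers summed to 62626 to 66033 CPM with shRela-1, 56137 to 62366 CPM in shScr and 55235 to 58219 CPM with shRela-2. The part of these markers in the falls was not tested.

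With shRela-2, 0 of the 10 changed at that threshold by edgeR and 0 by DESeq2, and 1 (Tap2) was higher at an unadjusted p under 0.05. Over all genes 15.4% rose and 15.4% fell with shRela-2, 30.9% in all. The median over the 10 genes was 0.14, against -0.0020 over all genes, and 10 of the 10 values were above 0. The hairpins share their 3 control samples, so the contrasts are not independent of each other. Compared directly, 3 of the 10 were higher with shRela-2 than with shRela-1 and none was lower (0 by either tool, and 0 at an unadjusted p under 0.05). These were again H2-T23, Tapbpl and Tap2, and over all genes 20.0% were higher and 19.9% lower, 39.9% in all. Values of leukocyte and fibroblast markers lay mostly on 1 side of 0 in these contrasts, though few leukocyte markers were called. The shares called were 7.69% of leukocyte markers with shRela-2 and 15.4% between hairpins, against 30.9% and 39.9% of all genes. In the same order, 9.09% and 54.5% of fibroblast markers were called, 0% and 33.3% of epithelial markers, and 0% of endothelial markers in both. Of 13 leukocyte markers, 11 had values below 0 with shRela-2 against shScr, where 1 fell (7 blocked, that is, with the replicate number as a block in the fit), and 13 had values below 0 between hairpins, where 2 were lower (8 blocked). Of 11 fibroblast markers, 10 had values below 0 between hairpins, where 5 were lower and 1 higher (10 and 1 blocked). The share of all genes lower in these blocked fits is not given here, so the blocked marker counts have no background. The part of these markers in the values of the 10 genes was not tested.

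**Figure D2:**
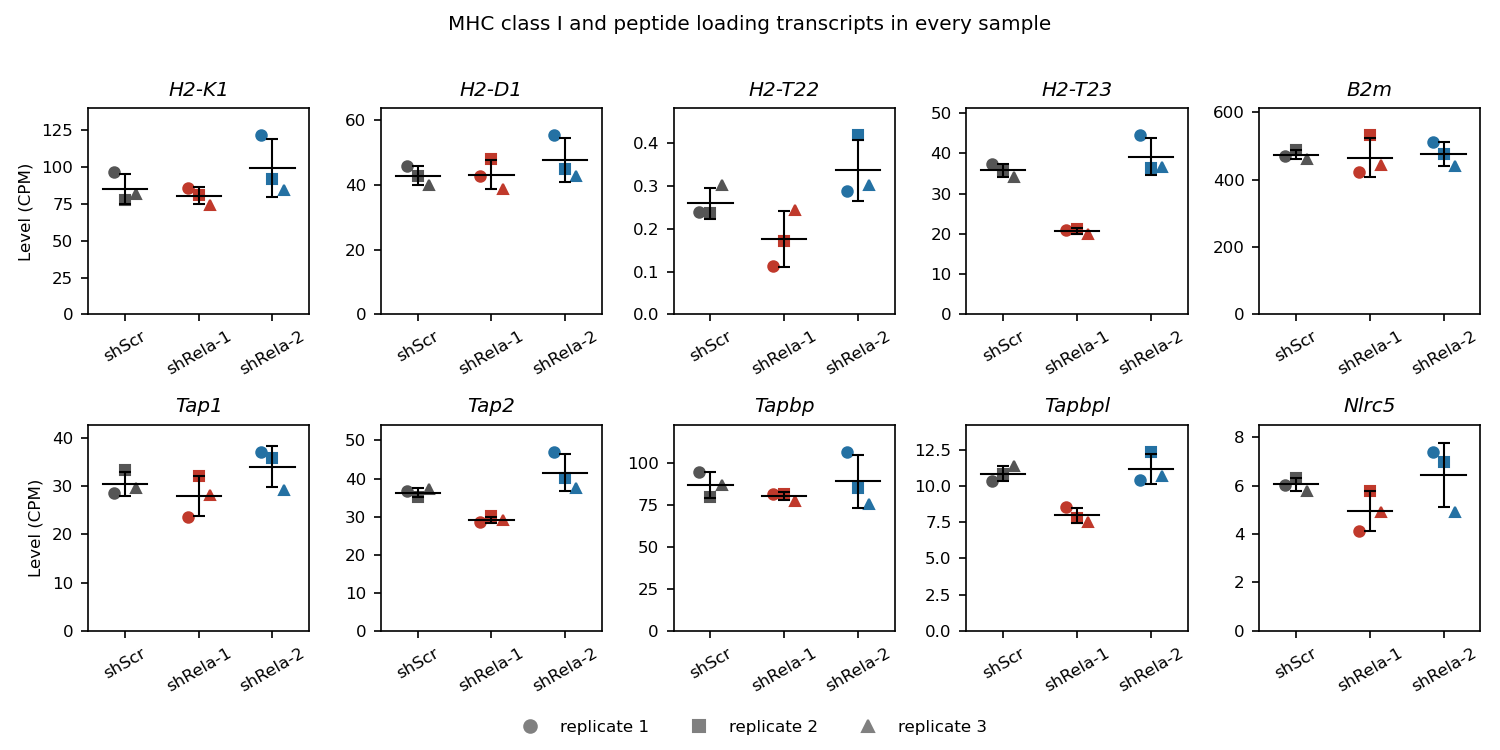
Level of each of the 10 genes in CPM (vertical axis, starting at 0) in the 9 samples; point shape gives the replicate number, the long bar the group mean and the whiskers ±1 SD (n = 3). H2-T23, Tap2 and Tapbpl show the 3 shRela-1 samples below all others, while B2m overlaps between groups.

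The classical heavy chains did not pass the test with either hairpin. In shScr, H2-K1 made up 49.9% and H2-D1 28.6% of the level per kilobase of the 4 heavy chains (means, n = 3). H2-K1, which presents peptides to CD8+ T cells as H-2K, lies at chr17:33996017-34000347 on the minus strand of mm10. Its level was 96.8, 77.5 and 81.3 CPM in shScr, 85.7, 81.0 and 74.2 CPM with shRela-1, and 121, 91.9 and 84.2 CPM with shRela-2. The highest value was that of shRela-2 replicate 1, and all 3 groups overlapped. The log2 difference from shScr was -0.08 ± 0.13 (SE) with shRela-1, with a 95% interval from -0.36 to 0.20, and 0.22 ± 0.13 with shRela-2, with an interval from -0.06 to 0.50 (adjusted p = 0.692 and 0.231, edgeR). In the blocked fit the shRela-2 value was called higher (0.21, adjusted p = 0.00173). Between hairpins the difference was 0.30 ± 0.13 (adjusted p = 0.0821), and it was called with the block (adjusted p = 4.89e-05), by DESeq2 (0.0377) and without shRela-2 replicate 3 (0.0305).

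H2-D1, the other classical heavy chain of this strain, lies at chr17:35262730-35267499 on the plus strand. It stood at 45.9, 42.6 and 39.9 CPM in shScr, 42.7, 47.9 and 38.8 CPM with shRela-1, and 55.3, 44.7 and 42.7 CPM with shRela-2. The groups overlapped, and shRela-2 replicate 1 was again the highest sample. The log2 differences from shScr were 0.01 ± 0.10 (95% interval -0.21 to 0.24) and 0.15 ± 0.10 (-0.08 to 0.38), with adjusted p = 0.949 and 0.306 in edgeR's test. The replicate block moved the shRela-2 value past the threshold (0.15, adjusted p = 0.0441). Between hairpins the difference was 0.14 ± 0.10 (adjusted p = 0.317).

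H2-T23, which encodes Qa-1, the nonclassical heavy chain that displays class I leader peptides to CD94/NKG2A receptors of natural killer cells, fell with shRela-1. It lies at chr17:36029773-36032855 on the minus strand. Its level was 37.4, 35.8 and 34.1 CPM in shScr, 20.9, 21.2 and 19.9 CPM with shRela-1, and 44.5, 36.4 and 36.7 CPM with shRela-2. The shRela-1 samples lay far below the other 6, and shScr and shRela-2 overlapped. With shRela-1, 3 of the 10 genes lay wholly below shScr, as 19.5% of all genes did. The log2 change with shRela-1 was -0.79 ± 0.077 (95% interval -0.96 to -0.62, adjusted p = 4.43e-05), which leaves 0.578 of the control level. With shRela-2 it was 0.13 ± 0.075 (-0.04 to 0.30, adjusted p = 0.228), and the hairpins differed by 0.92 ± 0.077 (adjusted p = 5.72e-06, edgeR). The fall held in all 14 alternative settings, where it ran from -0.82 to -0.76. Against the shScr sample of the same number, shRela-1 replicates 1 to 3 stood at 0.559, 0.592 and 0.583.

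H2-T22, a nonclassical heavy chain that some gamma-delta T cells recognise, had few counts. It lies at chr17:36037128-36042747 on the minus strand and had 12, 16 and 19 counts in shScr, 7, 11 and 15 in the shRela-1 samples, and 15, 26 and 17 in those of shRela-2. In CPM the shRela-1 samples (0.113, 0.172 and 0.244) lay below the shRela-2 samples (0.289, 0.418 and 0.303), and the 3 shScr samples (0.239, 0.237 and 0.302) overlapped both. The fitted log2 difference between hairpins was 0.94 ± 0.36 (95% interval 0.13 to 1.74, adjusted p = 0.0625 in edgeR, and 0.0407 without shRela-1 replicate 3). Differences from shScr were -0.56 ± 0.37 and 0.38 ± 0.35 (adjusted p = 0.321 and 0.46). Of the 50-base stretches in its transcripts, 53.5% also occur in another gene, most often H2-T10, so its reads could have been split between genes. For H2-K1, H2-D1 and H2-T23 that share was 9.63%, 12.8% and 14.5%. The sources used here do not give how the authors' counting treated such reads.

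B2m, the light chain that every class I molecule needs, differed between the groups by less than its samples did. It lies at chr2:122147686-122153083 on the plus strand and measured 471, 489 and 462 CPM in shScr, 421, 532 and 443 CPM with shRela-1, and 511, 476 and 439 CPM with shRela-2. The 3 groups overlapped, and shRela-1 held both the lowest and the highest of the 9 samples. The log2 differences from shScr were -0.03 ± 0.082 (95% interval -0.21 to 0.16) and 0.00 ± 0.082 (-0.18 to 0.19), with adjusted p = 0.855 and 0.981 in edgeR's test. None of its 50-base stretches occurs in another gene.

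Levels of different genes were compared per kilobase of exon (GENCODE M21). In shScr, B2m led with 551 ± 16.4 CPM per kb (SD, n = 3), followed by H2-K1 at 29.0 ± 3.49, Tapbp at 23.9 ± 2.08, H2-D1 at 16.6 ± 1.17 and H2-T23 at 12.4 ± 0.555 CPM per kb. Tap2 stood at 9.61 ± 0.306, Tap1 at 5.55 ± 0.460, Tapbpl at 4.61 ± 0.228, Nlrc5 at 0.712 ± 0.0329 and H2-T22 at 0.0760 ± 0.0108 CPM per kb. No neighbours in that order overlapped over the shScr samples. With shRela-1, H2-T23 (7.15 ± 0.238) stood below Tap2 (7.73 ± 0.208), the only exchange of places in that group, and no neighbours overlapped there either. With shRela-2 the order was that of shScr, but H2-K1 overlapped Tapbp, and Tapbp overlapped H2-D1. H2-T23 made up 21.4 ± 1.07% of the summed level per kb of the 4 heavy chains in shScr, 13.98 ± 0.525% with shRela-1 and 20.7 ± 1.12% with shRela-2. The level of B2m was 9.54 ± 0.868 times that sum in shScr, 10.6 ± 1.18 times with shRela-1 and 8.47 ± 0.770 times with shRela-2. These shares and ratios are a description, with no test.

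Of the transporter subunits, which together carry peptides into the endoplasmic reticulum, Tap2 fell with shRela-1. It lies at chr17:34203527-34216321 on the plus strand, within the class II region of the MHC. Its level was 36.7, 35.0 and 37.3 CPM in shScr, 28.5, 30.04 and 29.1 CPM with shRela-1, and 47.0, 40.1 and 37.5 CPM with shRela-2. The 3 groups did not overlap, with shRela-1 lowest and shRela-2 highest. The log2 change was -0.31 ± 0.073 with shRela-1 (95% interval -0.48 to -0.15, adjusted p = 0.0104), and the value with shRela-2 was 0.19 ± 0.073 (0.03 to 0.35, adjusted p = 0.0689, edgeR). The latter was called higher with the replicate block (0.19, adjusted p = 0.00917) and without shRela-2 replicate 3 (0.26, adjusted p = 0.0193). It was the only 1 of the 10 genes whose shRela-2 samples all lay beyond the shScr samples, as 22.5% of all genes did on the higher side. The hairpins differed by 0.51 ± 0.073 (adjusted p = 0.000281, edgeR). The library kit does not mark strand, and 14.1% of the exonic length of Tap2 overlaps Gm15821 on the other strand.

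Tap1, the partner subunit, lies at chr17:34187553-34197225 on the plus strand, with Psmb8 between it and Tap2. It stood at 28.5, 33.3 and 29.5 CPM in shScr, 23.7, 32.0 and 28.1 CPM with shRela-1, and 37.1, 35.8 and 29.1 CPM with shRela-2. All 3 groups overlapped, and the spread within each hairpin group was as wide as the distance between groups. The log2 differences from shScr were -0.12 ± 0.12 (95% interval -0.38 to 0.14) and 0.16 ± 0.12 (-0.10 to 0.42), with adjusted p = 0.503 and 0.351 in edgeR's test. Between hairpins it was 0.28 ± 0.12 (adjusted p = 0.0799). That difference was called with the replicate block (adjusted p = 0.00228), by DESeq2 (0.0459), and when shRela-1 replicate 2 (0.0269) or shRela-2 replicate 3 (0.0275) was left out.

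Of the peptide editors, Tapbpl, which encodes TAPBPR, an editor that works outside the loading complex, fell with shRela-1. It lies outside the MHC, at chr6:125223933-125231860 on the minus strand, and measured 10.3, 10.8 and 11.4 CPM in shScr, 8.55, 7.80 and 7.53 CPM with shRela-1, and 10.4, 12.3 and 10.7 CPM with shRela-2. The shRela-1 samples were below the other 6, which overlapped. The log2 change with shRela-1 was -0.45 ± 0.089 (95% interval -0.64 to -0.25, adjusted p = 0.00438). With shRela-2 it was 0.04 ± 0.088 (-0.15 to 0.24, adjusted p = 0.772), and the hairpins differed by 0.49 ± 0.089 (adjusted p = 0.00133, edgeR).

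Tapbp, which encodes tapasin, the bridge between TAP and the empty heavy chain, lies at chr17:33915899-33929292 on the plus strand. Its level was 94.4, 79.3 and 86.5 CPM in shScr, 81.6, 81.6 and 77.4 CPM with shRela-1, and 106, 84.9 and 75.5 CPM with shRela-2. The groups overlapped, and the shRela-2 samples spanned the range of both other groups. The log2 differences from shScr were -0.11 ± 0.11 (95% interval -0.35 to 0.12) and 0.04 ± 0.11 (-0.20 to 0.27), with adjusted p = 0.501 and 0.839 in edgeR's test. Between hairpins it was 0.15 ± 0.11 (adjusted p = 0.304, blocked 0.049). Exons of Gm19412 on the other strand cover 24.9% of its exonic length.

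Nlrc5, the coactivator that binds the shared promoter module of class I genes, was low in all groups. It lies at chr8:94434356-94527272 on the plus strand, and its level was 6.04, 6.33 and 5.77 CPM in shScr, 4.14, 5.79 and 4.92 CPM with shRela-1, and 7.39, 6.98 and 4.91 CPM with shRela-2. Both hairpin groups overlapped shScr, and shRela-2 replicate 3 lay below all shScr samples although the other two lay above them. The log2 differences from shScr were -0.29 ± 0.16 (95% interval -0.65 to 0.07) and 0.09 ± 0.16 (-0.27 to 0.45), with adjusted p = 0.235 and 0.732 in edgeR's test. Between hairpins it was 0.38 ± 0.16 (adjusted p = 0.0904). The block (adjusted p = 0.0123) and leaving out shRela-1 replicate 2 (0.0472) or shRela-2 replicate 3 (0.0134) each moved that difference past the threshold.

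**Figure D3:**
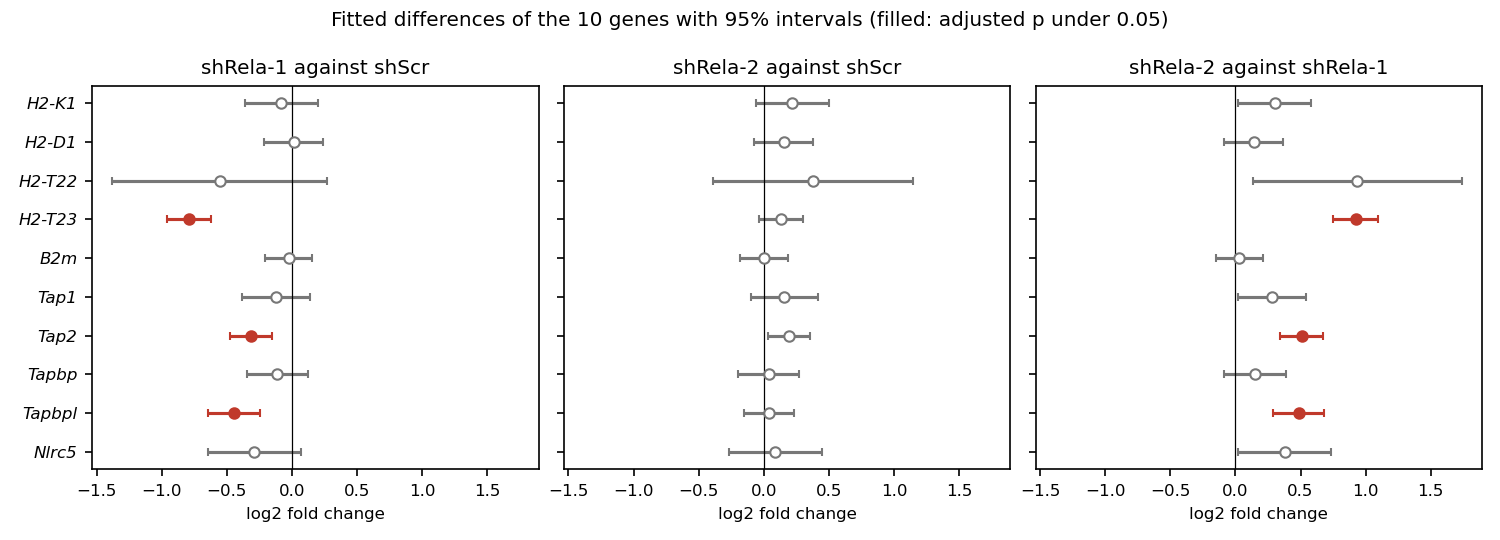
Fitted log2 fold change of each of the 10 genes with its 95% interval (horizontal axis) in the 3 contrasts; filled red points have an adjusted p under 0.05. H2-T23, Tap2 and Tapbpl are filled for shRela-1 against shScr and for shRela-2 against shRela-1, and no gene is filled for shRela-2 against shScr.

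The replicate block left 3 of the 10 genes lower with shRela-1, the same 3, where 18.9% of all genes fell. Across the 10 genes the direct contrast of the hairpins had a median log2 difference of 0.34, against 0.0045 over all genes, and 10 of the 10 values were above 0. The groups did not overlap for 4 of the 10, all higher with shRela-2, as 25.1% of all genes were. With the replicate block 7 of the 10 were called higher, where 25.8% of all genes were, and DESeq2 called 5. With shRela-2 against shScr, the block called 3 (H2-K1, H2-D1 and Tap2), where 22.2% of all genes were called higher. Without shRela-2 replicate 3, 1 gene (Tap2) was higher in that contrast and 6 were higher between hairpins. Without shRela-1 replicate 2, 5 were higher between hairpins. No share of all genes is given beside the DESeq2 count or the counts with a sample left out. Rela itself differed between the hairpin groups by 0.03 on the log2 scale.

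Single samples were highest or lowest of their group for many of the 10 genes at once. How often each sample was so over all genes was not counted, so these counts have no background. In shRela-2, replicate 1 was the highest of the 3 samples for 8 of the 10 genes, all but H2-T22 and Tapbpl, and replicate 3 was the lowest for 7. In shRela-1, replicate 2 was the highest for 7 of the 10. In shScr the highest values were divided as 4, 3 and 3 over replicates 1 to 3. The interferon response genes Irf7, Irf9 and Stat2 were examined beside them after their values had been seen. All 3 were highest in shRela-2 replicate 1 and in shRela-1 replicate 2 of their groups, and in shScr all 3 were highest in replicate 1. Psmb8 was highest in the same samples, but Irf1, Psmb9 and Psmb10 were not in every group. Irf1 was highest of shScr in replicate 2, Psmb10 of shScr in replicate 3, and Psmb9 of shRela-2 in replicate 2. Irf7, a factor that interferons induce, stood at 22.04, 16.5 and 18.1 CPM in shScr, 9.05, 17.7 and 13.8 CPM with shRela-1, and 33.2, 15.4 and 12.4 CPM with shRela-2. Of the leukocyte markers, 13 of 13 were highest in replicate 2 in shScr, and 12 of 13 in shRela-1 and in shRela-2, so in shRela-1 most of them were highest in the same sample as most of the 10 genes, and in shRela-2 in another. Their summed level was 381 CPM in shRela-2 replicate 1, the lowest of the 9 samples. Lyz2, their most abundant member, ranged from 271 to 451 CPM. The part of interferon signalling or of leukocytes in the values of the 10 genes was not tested. H2-T23, Tap2 and Tapbpl kept their shRela-1 samples below the other 6 whichever replicate was considered.

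**Figure D4:**
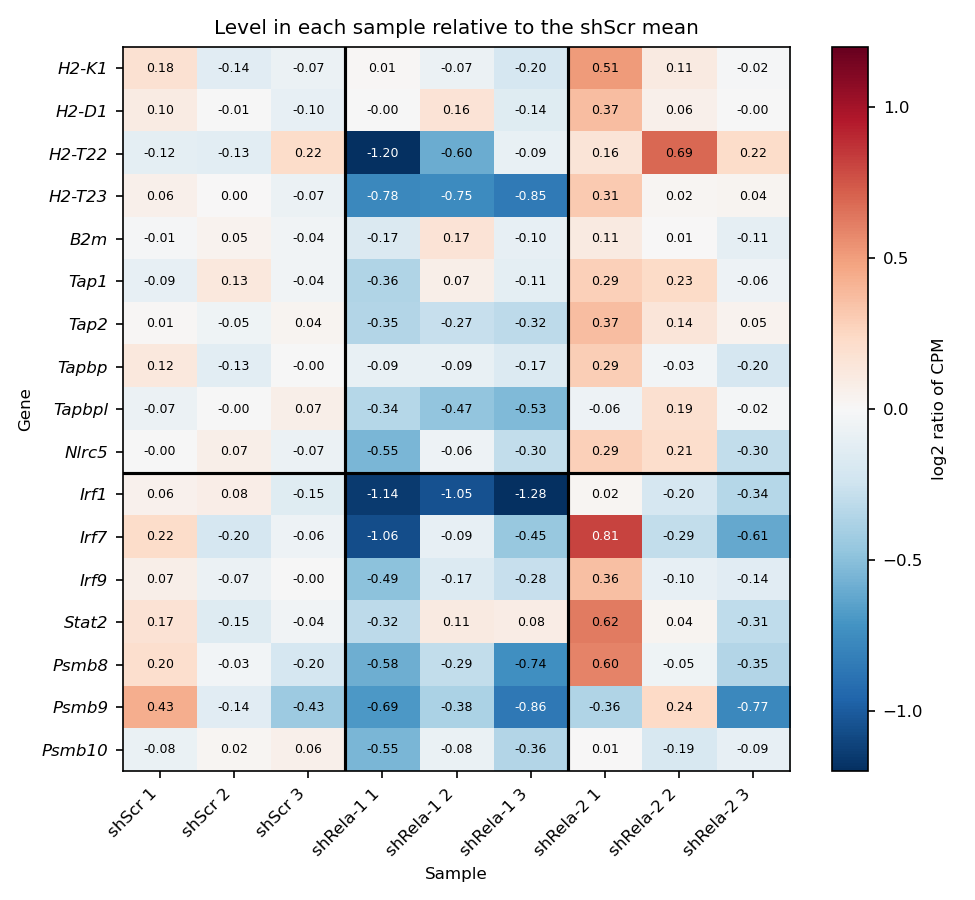
Level in each of the 9 samples (columns) relative to the mean of shScr, as the log2 ratio of CPM given by colour and number, for the 10 genes (above the line) and 7 interferon-related genes (below it). H2-T23 and Irf1 are low in all 3 shRela-1 samples, and Irf7 and Stat2 are high in shRela-2 replicate 1.

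Other heavy chains and class I-like genes were listed as 31 names, of which 30 are in the table and 14 had enough counts to be tested. With shRela-1, 3 fell and 1 rose, and the median was -0.25. That is 28.6% of the 14 called, against 24.7% of all genes. With shRela-2 the shares called were 14.3% and 30.9%. With shRela-2, 2 rose and none fell (0 by edgeR, although 1 was lower at an unadjusted p under 0.05 and 1 by DESeq2), with a median of 0.14. Without shScr replicate 2 or shRela-2 replicate 1, 1 rose with shRela-2, and without shScr replicate 3 or shRela-2 replicate 1, 1 fell. The replicate block gave 5 lower and 2 higher with shRela-1, and 4 higher and 2 lower with shRela-2. Over all genes the block gave 18.9% lower with shRela-1 and 22.2% higher with shRela-2. Shares for the opposite directions are not given here, so those counts of 2 have no background share beside them. H2-Q6, H2-Q7, H2-Q8, H2-Q9, H2-T9 and Azgp1 had no count in any sample. Of the 50-base stretches of H2-Q6 and H2-Q7, 35% and 26.5% also occur in another gene. How such reads were counted is not given, so a count of 0 does not show that a gene was silent.

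H2-M3, which presents N-formylated peptides, was the 1 tested heavy chain of this list that passed the test in opposite directions. It measured 4.23, 3.91 and 4.53 CPM in shScr, 2.91, 3.45 and 1.97 CPM with shRela-1, and 8.20, 6.87 and 5.82 CPM with shRela-2. The 3 groups did not overlap. The log2 changes were -0.60 ± 0.19 and 0.72 ± 0.19 (adjusted p = 0.0443 and 0.0138, edgeR), and the hairpins differed by 1.32 ± 0.19 (adjusted p = 0.000289). Cd1d1, which presents lipids to natural killer T cells, fell with shRela-1 from 3.22 ± 0.264 to 1.39 ± 0.259 CPM (SD, n = 3), a log2 change of -1.21 ± 0.17 (adjusted p = 0.000449, edgeR), and stood at 3.51 ± 0.512 CPM with shRela-2. Procr, the endothelial protein C receptor, fell with shRela-1 (-0.53 ± 0.068, adjusted p = 0.000254) while the shRela-2 value was 0.16 ± 0.067 (adjusted p = 0.0894, blocked 0.00404). Hfe, a regulator of iron uptake that also pairs with beta-2 microglobulin, rose with shRela-1 from 7.19 ± 0.609 to 12.9 ± 0.498 CPM, by 0.84 ± 0.091 (adjusted p = 9.88e-05). With shRela-2 it was at -0.27 ± 0.093 (adjusted p = 0.0542, blocked 0.0101). Fcgrt, the neonatal Fc receptor, rose with shRela-2 (0.24 ± 0.056, adjusted p = 0.00814, edgeR).

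The genes that supply and fold peptides and chains numbered 25, all tested. With shRela-1, 6 rose and 5 fell (9 fell with the replicate block), and with shRela-2, 11 rose and 3 fell. That is 44% and 56% of the list called, against 24.7% and 30.9% of all genes. The list holds abundant transcripts, such as Calr and Pdia3 (means of 1457 and 1309 CPM in shScr). The share of all genes was not matched for level. With the block, 18.9% of all genes fell with shRela-1. The count of 11 was 7 without shScr replicate 3, shRela-2 replicate 1 or shRela-2 replicate 3. The medians were -0.02 and 0.11. Erap1, the aminopeptidase that trims peptides in the endoplasmic reticulum, moved in opposite directions with the hairpins. It measured 18.1, 19.9 and 19.0 CPM in shScr, 13.4, 15.1 and 15.0 CPM with shRela-1, and 28.6, 27.6 and 23.8 CPM with shRela-2. The groups did not overlap, and the log2 changes were -0.39 ± 0.081 and 0.49 ± 0.081 (adjusted p = 0.0058 and 0.0011, edgeR).

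Canx, the chaperone calnexin that holds new heavy chains, went the same way, from 784 ± 29.1 CPM in shScr to 652 ± 17.5 with shRela-1 and 874 ± 17.5 with shRela-2. Its log2 changes were -0.26 ± 0.040 and 0.16 ± 0.040 (adjusted p = 0.000883 and 0.0127, edgeR). Pdia3, which encodes ERp57 of the loading complex, went the other way, with log2 changes of 0.21 ± 0.041 and -0.25 ± 0.041 (adjusted p = 0.00382 and 0.00119, in the same order). Calr, calreticulin, had values of 0.15 ± 0.060 and 0.14 ± 0.060 (adjusted p = 0.0987 and 0.115), which the replicate block moved past the threshold (adjusted p = 0.000433 and 0.000787). Ganab, a glucosidase that trims the glycans of new chains, rose with shRela-2 by 0.25 ± 0.034, and Lnpep, an aminopeptidase of endosomes, rose with shRela-1 by 0.35 ± 0.045.

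The proteasome subunits gave a mixed picture. The immunoproteasome subunits Psmb8, Psmb9 and Psmb10, which interferons induce, did not pass the test with either hairpin. Psmb8 was at 6.74, 5.74 and 5.10 CPM in shScr, 3.91, 4.79 and 3.52 CPM with shRela-1, and 8.86, 5.66 and 4.59 CPM with shRela-2. Its shRela-1 samples lay below those of shScr, with a log2 difference of -0.52 ± 0.22 (adjusted p = 0.12 in edgeR, blocked 0.00346). With shRela-1, Psmb9 was at -0.61 ± 0.31 (adjusted p = 0.183) and Psmb10 at -0.32 ± 0.11 (adjusted p = 0.0592, blocked 0.00622). The adjusted p values with shRela-2 were 0.731, 0.637 and 0.587 for Psmb8, Psmb9 and Psmb10. Of the subunits of the standard proteasome, Psmb6 fell from 117, 112 and 111 CPM in shScr to 103, 105 and 98.4 CPM with shRela-1 and to 55.9, 55.1 and 56.1 CPM with shRela-2. Those changes were -0.15 ± 0.037 and -1.02 ± 0.037 (adjusted p = 0.0128 and 8.76e-08, edgeR). Psmb5 fell with shRela-1 by 0.30 ± 0.031 on the log2 scale (adjusted p = 7.49e-05). Psme1 and Psme2, the subunits of the PA28 activator, were at -0.16 ± 0.089 and -0.14 ± 0.067 with shRela-1 (adjusted p = 0.243 and 0.17, blocked 0.0345 and 0.042). With shRela-2 they were at -0.20 ± 0.089 and -0.08 ± 0.067 (adjusted p = 0.129 and 0.405), and the block called Psme1 lower (adjusted p = 0.00704).

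The factors and interferon signalling genes that govern class I transcription numbered 26, all tested. With each hairpin 2 rose and 5 fell, and the medians were -0.06 and 0.06. That is 26.9% of the list called with each, near the shares of all genes, 24.7% with shRela-1 and 30.9% with shRela-2. With the replicate block 8 fell with shRela-1 and 4 rose with shRela-2, where 18.9% and 22.2% of all genes did. Irf1, a factor that binds the interferon element of class I promoters, was the gene of this list that fell furthest with shRela-1. It measured 13.9, 14.2 and 12.1 CPM in shScr, 6.07, 6.49 and 5.54 CPM with shRela-1, and 13.6, 11.7 and 10.6 CPM with shRela-2. Its shRela-1 samples lay below the other 6, as did those of Jak1, Nfyb and further genes of this list. Those of H2-T23, Tap2 and Tapbpl did so too, and the share of all genes with this pattern was not counted. The log2 change with shRela-1 was -1.15 ± 0.11 (adjusted p = 3.86e-05), the value with shRela-2 was -0.17 ± 0.11 (adjusted p = 0.276), and the hairpins differed by 0.98 ± 0.11 (adjusted p = 4.54e-05, edgeR).

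Rfx5, which binds the X box of the class I promoter module, rose with both hairpins, by 0.23 ± 0.061 and 0.19 ± 0.061 (adjusted p = 0.0193 and 0.0409). Nfyb, a subunit of the NF-Y factor that binds CCAAT, fell with both, by 0.58 ± 0.055 and 0.18 ± 0.054 on the log2 scale (adjusted p = 3.59e-05 and 0.0258). Nfya, its partner subunit, rose with shRela-1 (0.36 ± 0.039), whereas shRela-2 lowered it (-0.13 ± 0.039) (adjusted p = 0.000104 and 0.0285). Jak1, a kinase of the interferon receptors, fell with shRela-1 from 255 ± 1.64 to 197 ± 3.55 CPM, and Tyk2, a related kinase, rose with shRela-2 by 0.25 ± 0.054 (adjusted p = 3.29e-05 and 0.00544, edgeR).

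The largest changes of this list with shRela-2 were those of Atf1 and Ifngr1. Ifngr1, a chain of the interferon-gamma receptor, was at 45.03, 44.7 and 45.3 CPM in shScr, 49.4, 44.9 and 50.1 CPM with shRela-1, and 21.7, 21.9 and 21.3 CPM with shRela-2. The shRela-2 samples stood far below the others, with a log2 change of -1.05 ± 0.047 (adjusted p = 3.06e-07, edgeR). Atf1, a factor that binds the cAMP element, fell from 40.5 ± 2.15 CPM in shScr to 14.2 ± 1.64 CPM with shRela-2, by 1.51 ± 0.081 on the log2 scale (adjusted p = 1.26e-06), and stood at 36.0 ± 1.93 CPM with shRela-1.

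**Figure D5:**
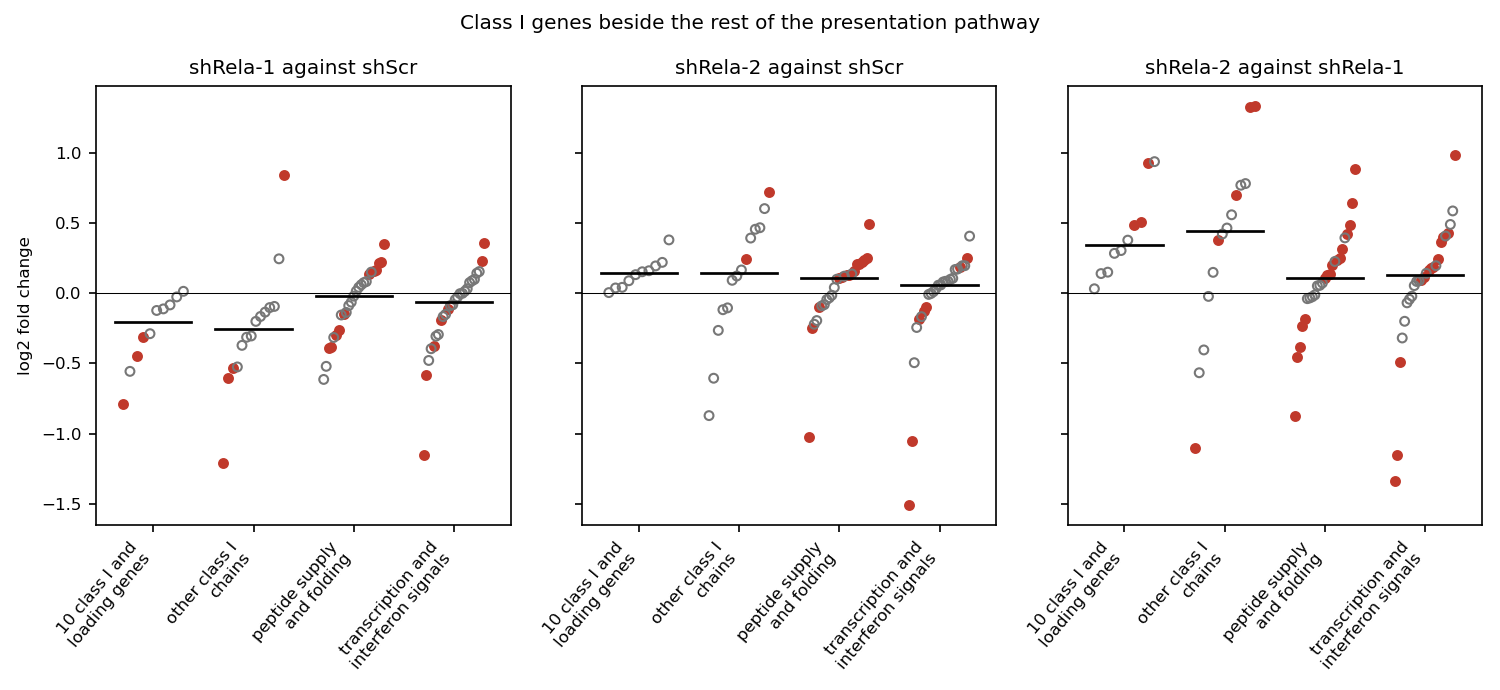
Log2 fold change (vertical axis) of every tested gene in the 10 class I and loading genes and the 3 pathway lists (14, 25 and 26 genes), in the 3 contrasts; filled red points have an adjusted p under 0.05 and the black bar is the list's median. For the 10 genes the medians are -0.21, 0.14 and 0.34 in the 3 contrasts.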

How the data were processed

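The values are raw counts of reads per gene, as deposited by the authors in a table with 1 column for each sample. Per the labels' protocols, libraries came from TruSeq RNA v2, a kit that does not mark strand. The build mm10 and the tools featureCounts 1.4.6 (Subread), Bowtie2 2.2.6 and TopHat2 2.0.14 come from the submitters' processing notes, which give no settings here. The sources used here do not give the read length or how reads matching several genes were counted. Samples were grouped by their titles. Nothing says that replicates are separate cultures, so p-values measure only how these samples vary, and that variation may be technical. No replicate pair looked like a duplicate (chi-square of the counts over its degrees of freedom 11.3 to 106). The highest values were those of shScr replicate 2 against replicates 1 and 3 (106 and 103). All other pairs lay between 11.3 and 32.5, so this control sample, used in both contrasts with shScr, deviated most.

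The test was the quasi-likelihood test of edgeR 4.0.16 (R 4.3.3), with filterByExpr (15369 of 24062 genes), TMM (factors 0.976 to 1.02), 1 mean per group over all 9 samples, glmQLFit and glmQLFTest, two-sided, with Benjamini-Hochberg adjustment over all genes tested. The words rose and fell are kept for an adjusted p under 0.05. Standard errors are the log2 fold change over the root of F. The procedure was tested on simulated data. Same-numbered samples deviated together in all 9 pairs (correlation 0.189 to 0.415, against -0.306 to 0.0459 in the 18 other pairs), so fits with the replicate number as a block are given where they change a call. Alternatives were DESeq2 1.42.0, its size factors in edgeR, no filter, the groups compared alone, and each sample left out. No column was left unused (0).

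The 10 genes, the gene lists and the rule for named genes were chosen with earlier results of these data known. The rule took the 10 genes, Rela, 12 pathway genes by name (1 of which is not reported here), and up to 4 called genes with the smallest p per pathway list and hairpin. Irf7, Irf9 and Stat2 and the genes without counts fall outside it. Gene positions and lengths are from GENCODE M21, and promoters from RefSeq. No lists were tested as sets.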

Additional observations from a re-analysis of the deposited data

How the results depend on the processing

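The falls of H2-T23, Tap2 and Tapbpl with shRela-1, and their higher level with shRela-2 than with shRela-1, kept their direction and stayed past the threshold in all 14 alternatives (largest adjusted p in edgeR or DESeq2 0.00056, 0.0436 and 0.0231 for the falls). Over the 10 genes in the 3 contrasts, 387 values under an alternative kept direction and call, 0 lost a call, 16 gained one and 15 changed sign. Each sign change was that of an uncalled value when 1 sample was left out. The ranges over the left-out samples were -0.15 to 0.017 for H2-K1, -0.070 to 0.086 for H2-D1 and -0.13 to 0.041 for B2m with shRela-1. With shRela-2 they were -0.051 to 0.057 for B2m, -0.11 to 0.14 for Tapbp, -0.039 to 0.087 for Tapbpl and -0.022 to 0.25 for Nlrc5. Between hairpins B2m ran from -0.040 to 0.14.

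With the replicate block, 3130 genes rose and 2904 fell with shRela-1. In that contrast 2 other class I genes rose and 5 fell, 9 supply and folding genes fell and 8 transcription genes fell. With shRela-2 and the block, 3 of the 10 genes, 4 other class I genes and 4 transcription genes rose, and 2 other class I genes fell. Between hairpins 7 of the 10 were higher. Among the genes given with a test against shScr, beside the blocked values printed with them, the block called Atf1 and Fcgrt lower with shRela-1 (adjusted p = 0.00915 and 0.0324) and changed no other call. DESeq2 called 5 of the 10 higher between hairpins and 1 other class I gene lower with shRela-2. Without a filter on low counts, 1 other class I gene fell and 1 transcription gene rose with shRela-2. The cause of these shifts was not tested.

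Leaving out each sample in turn gave 0 to 1 of the 10 genes higher with shRela-2 and 3 to 6 higher between hairpins. For other class I genes it gave 1 to 3 higher and 0 to 1 lower with shRela-2, and 1 to 2 lower between hairpins. Supply and folding genes higher with shRela-2 numbered 7 to 11. Transcription genes higher numbered 1 to 2 with shRela-1, 1 to 2 with shRela-2 and 4 to 9 between hairpins. In the same fits 2 to 4 were lower with shRela-2. Shares of all genes are not given beside counts under DESeq2, without a filter or with a sample left out. Nor is a share given beside the blocked count lower with shRela-2. Such counts show only how the calls moved. DESeq2 gave no adjusted p for H2-T22 against shScr. With 7 to 26 counts per sample, differences of H2-T22 were not detectable at this depth unless large. Counting intervals would not cover duplicate reads.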
